A study of Homo sapiens with 26 samples.

Results

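The comparison asked how far 2 short hairpin RNAs directed at RUNX1T1, called sh4 and shAMB, moved the transcriptome of the same neuroblastoma cell line in different directions. For each gene, the log2 fold change between doxycycline and DMSO was taken in each line, and the sh4 effect was subtracted from the shAMB effect. A positive difference therefore means that expression was higher on the shAMB side, and a negative difference that it was higher on the sh4 side. The comparison used 12 of the 26 libraries of the series, 3 in each of 4 groups: sh4 RUNX1T1 with DMSO, sh4 RUNX1T1 with doxycycline, shAMB RUNX1T1 with DMSO and shAMB RUNX1T1 with doxycycline. All 12 came from cultures of Kelly, an established human neuroblastoma line in which MYCN is amplified. The hairpins were delivered in a lentiviral vector that also carries green fluorescent protein, and doxycycline switches on their transcription. DMSO libraries served as the uninduced state of the same line, and each line is a single transduced population whose clonality is not given in the sources used here. Treatment lasted 72 h. Another Kelly line with the empty vector (F1HUTG, EV) gave 3 DMSO and 3 doxycycline libraries, which show what doxycycline did without a hairpin. A separate set of 8 Kelly tumours grown in immunodeficient mice gave a readout in libraries that took no part in choosing the genes. Of these, 4 were labelled WT and given control food, and 4 were labelled RUNX1T1 KO and given doxycycline food. By the study's text the tumours carried the hairpin built on the Ambion siRNA sequence, which the name shAMB matches, while the labels name no hairpin. Nothing in the labels states that the culture replicates were separate experiments, so p-values measure the spread between these libraries. Of 26485 genes in the table, 14905 had enough counts to be tested.

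RUNX1T1 is a transcriptional co-repressor. It does not bind DNA itself but bridges DNA-binding factors to NCOR and SIN3A complexes and to histone deacetylases, which close chromatin. A short hairpin RNA is processed into a small guide RNA that directs the silencing complex to matching transcripts, and it can also pair in part with transcripts other than its target. Hairpins directed at the same gene share that target but not their guide sequence. Neuroblastoma arises from sympathetic precursors, whose maturation brings neurite, synaptic and neuropeptide genes and a slower cell cycle.

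RUNX1T1 RNA itself hardly moved. It was at 34.7, 33.3 and 35.01 counts-per-million (CPM) in the sh4 line with DMSO and at 31.2, 33.9 and 30.1 with doxycycline. With shAMB it was at 40.8, 42.0 and 39.9 with DMSO and at 41.3, 44.1 and 42.2 with doxycycline. Neither effect passed an adjusted p of 0.05 in edgeR's quasi-likelihood test (log2 fold change -0.11, adjusted p = 0.117 with sh4, and 0.06, adjusted p = 0.378 with shAMB). The difference between the effects was 0.17 (SE 0.0775, adjusted p = 0.0716). The RNA of the targeted gene thus gave no check of which libraries were induced, and the groups below are as labelled. The study's text reports that RUNX1T1 levels fell significantly in Kelly cultures given doxycycline, with each of its hairpins, which it names differently. It also reports loss of RUNX1T1 by immunostaining in Kelly tumours. RNA libraries hold no measure of protein, so the small RNA change leaves depletion of the protein untested here.

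Depth was similar across the 4 groups, between 38306200 and 54736700 estimated counts per library. HAND2, a marker of sympathetic neuroblasts, was at 232 to 426 CPM in all 12 libraries. The glial factor SOX10 was at 0 in 10 of the 12. PTPRC of leukocytes, PECAM1 of endothelium and COL1A2 of fibroblasts stayed at or below 0.0986 CPM. In bulk libraries, fewer cells in a state and less RNA per cell cannot be told apart. Libraries deviated from their group means in step with the GC content of genes, with Spearman correlations across 14401 genes from -0.730 to 0.791 in the hairpin lines. The ends of that range were replicates 1 and 3 of the sh4 line with doxycycline, and replicates 1 and 3 of the sh4 line with DMSO had 0.698 and -0.690. Replicate 3 of the sh4 line with doxycycline also lay farthest from its group mean, at a root mean square of 0.337 in log2. The other hairpin libraries had 0.160 to 0.250. Totals of opposite genes are also given without this replicate, while list counts and medians below include it. Some list medians of the sh4 effect changed sign without it, such as that of axon guidance genes, from 0.11 to -0.09.

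The hairpins separated most of the transcriptome. Of the 14905 genes tested, 9078 (60.9%) differed in their response to doxycycline between the lines at an adjusted p under 0.05. Among these, 4933 (33.1% of genes tested) were higher with shAMB and 4145 (27.8%) were higher with sh4. The median size of a difference that passed was 0.758 on the log2 scale. Differences of at least 2-fold were found for 2407 genes on the shAMB side and 819 on the sh4 side. The sh4 line alone had 6091 genes past the threshold (40.9%), of which 3410 (22.9%) rose and 2681 (18%) fell. The shAMB line had 9840 (66%), with 5602 (37.6%) up and 4238 (28.4%) down. In the EV line, 14 genes passed (0.0939%). Across all genes tested the effects of the 2 hairpins had a Pearson correlation of 0.082, given as a description over genes that are not independent replicates.

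Most genes that differed responded in 1 line or moved in opposite directions. Of the 9078, 4526 passed in the shAMB line alone, 1382 in the sh4 line alone and 339 in neither. Both hairpins changed a further set in the same direction but by different amounts, 699 genes (4.69% of genes tested) more with shAMB and 292 (1.96%) more with sh4. The remaining 1840 genes (12.3%) passed in both lines with opposite signs. Of these, 806 (5.41%) fell with sh4 and rose with shAMB, with median effects of -0.50 and 0.60, and 1034 (6.94%) rose with sh4 and fell with shAMB, with medians of 0.35 and -0.45. The doxycycline and DMSO libraries did not overlap in either line for 606 of the 806 and 903 of the 1034 genes, where 30.8% of all genes tested did so, a comparison that the choice of these genes fixes. Opposite effects of at least 0.5 in each line were seen for 318 and 154 genes. Tested against the EV line as well, 343 and 543 genes differed from the EV effect in both lines, where 32.6% of genes tested differed from it with sh4 and 45.5% with shAMB. Without replicate 3 of the sh4 line with doxycycline, 1884 genes fell with sh4 and rose with shAMB, and 3419 were opposite in all. Leaving out replicate 1 of the sh4 line with DMSO left 529 and 1280.

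**Figure D1:**
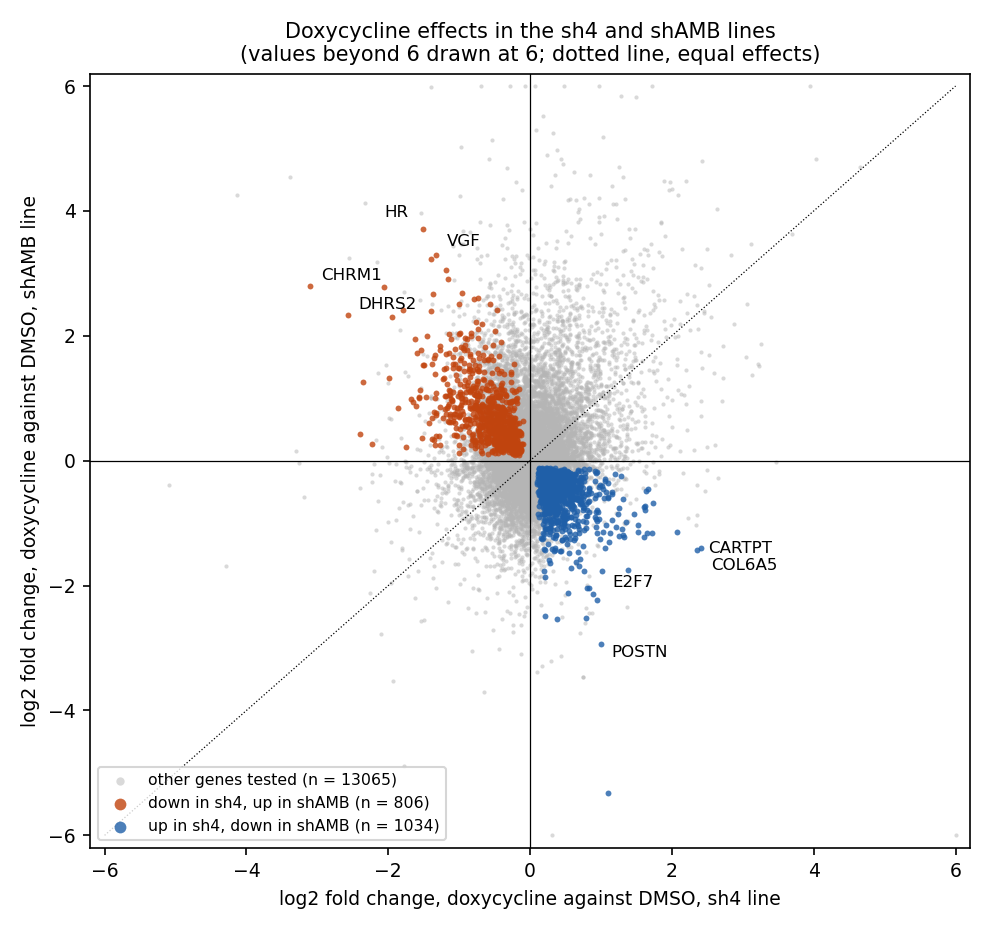
Log2 fold change of doxycycline against DMSO in the sh4 line (x axis) and in the shAMB line (y axis) for each of the 14905 genes tested, with values beyond 6 drawn at 6. The 806 genes that fell with sh4 and rose with shAMB fill the upper left and the 1034 genes that rose with sh4 and fell with shAMB the lower right, with CHRM1, HR, VGF, CARTPT, COL6A5, E2F7 and POSTN among the farthest out.

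GC content moved with the difference. Across the 14401 genes with a value, the Spearman correlation of the difference with GC content was 0.536, and it was -0.305 for the sh4 effect, 0.469 for the shAMB effect and 0.647 for the EV effect. For uninduced shAMB against uninduced sh4 libraries it was -0.744, and the difference is taken from the same DMSO libraries. These correlations are over genes of the same libraries and carry no p. Genes that fell with sh4 and rose with shAMB had a median GC content of 54.8%, and those that rose with sh4 and fell with shAMB had 44.2%, against 49.4% for all genes tested. After the trends with GC content and length were removed from each library, the correlation with the difference was 0.005. In that fit, 9760 genes differed between the hairpins and 2564 were opposite, 1258 down with sh4 and up with shAMB and 1306 the other way. Of the original sets, 500 of 806 and 787 of 1034 stayed in the same class. For many of the genes and lists whose value depended on this step, both values are given below. Counts of list members below are to be read against all genes tested. Of those, 22.9% rose and 18% fell with sh4, and 37.6% rose and 28.4% fell with shAMB. In the difference 33.1% were higher and 27.8% lower. The shares of opposite genes were 5.41% down with sh4 and up with shAMB, and 6.94% the other way.

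Genes that fell with sh4 and rose with shAMB included CHRM1, DHRS2, HR and VGF at the largest differences. CHRM1, the M1 muscarinic acetylcholine receptor, was at 4.46, 3.15 and 2.84 CPM in the sh4 line with DMSO and at 0.331, 0.331 and 0.564 with doxycycline. In the shAMB line CHRM1 went from 2.41, 1.82 and 2.51 to 12.7, 16.7 and 17.5 CPM. Neither line's groups overlapped, which the rule that named these genes required, as it did a difference that passed. The effects of -3.10 and 2.79 left a difference of 5.90 (SE 0.373, adjusted p = 4.51e-09). DHRS2, a short-chain dehydrogenase, fell from 1.96, 2.14 and 2.03 to 0.496, 0.292 and 0.245 CPM with sh4 and rose from 1.43, 1.40 and 1.58 to 6.67, 8.20 and 7.41 CPM with shAMB. Its difference was 4.90 (SE 0.254). HR, a co-repressor of nuclear receptors, had effects of -1.51 and 3.70. CAMKK1, a kinase that activates calmodulin-dependent kinases, had -1.35 and 1.64. SYT5, a synaptotagmin of secretory vesicles, had -1.27 and 1.77. RENBP, CCDC78, FAM110D and LGALS1 had differences between 2.55 and 3.03. PGAM2 (3.59) and OPRL1 (3.12) came under the same rule, but exons of other genes cover 100% and 74.8% of their exons, so their values are uncertain.

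VGF, a secreted peptide precursor induced by neurotrophins in neurons, stood among the farthest apart of these genes. VGF fell from 2.02, 1.59 and 1.54 to 0.520, 0.642 and 0.908 CPM with sh4, and rose from 0.961, 1.35 and 1.23 to 8.69, 11.7 and 14.2 CPM with shAMB. The groups were separate in both lines, as the same rule required. The difference was 4.61 (SE 0.322, adjusted p = 1.22e-08), or 2.75 with the GC and length trends removed. In the EV line its effect was 0.75. Its promoter is shown because it holds a complete cyclic AMP response element (TGACGTCA, in capitals), the letters bound by CREB and ATF family factors. The match lies 79 bases before the start of transcription, and the stretch is chr7:101165616-101165673 on the minus strand of GRCh38.p14, from RefSeq.
VGF: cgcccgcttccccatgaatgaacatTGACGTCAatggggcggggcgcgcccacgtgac
These letters occur, on either strand, in 3.20% of the 11629 tested genes with a promoter window of 250 bases before to 50 after the start, in 3.49% of the genes that fell with sh4 and rose with shAMB, and in 4.89% of those that went the other way. A match is a description of the letters and no sign of binding.

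Genes of neuronal differentiation fell with sh4 and were mixed with shAMB. Of 37 tested genes of neuronal differentiation, 20 were higher with shAMB and 11 with sh4, and 7 fell with sh4 and rose with shAMB against 1 in reverse. The list's median effect was -0.31 with sh4 and 0.00 with shAMB. Its median difference of 0.33, against 0.09 for all genes tested, was 0.03 with the GC and length trends removed, and the list's medians were then -0.30 with sh4 and -0.24 with shAMB, while those 7 members stayed opposite. The 1 in reverse was RBFOX2, a neuronal splicing factor, with effects of 0.14 and -0.34. DCX, a microtubule protein of migrating neurons, was at 80.3, 80.6 and 88.0 CPM and fell to 59.6, 61.4 and 53.5 with sh4. With shAMB DCX went from 83.1, 84.4 and 77.8 to 149, 142 and 148 CPM. Its groups were separate in each line, the difference was 1.35 (SE 0.0876, adjusted p = 5.86e-09), and it was 1.45 with the trends removed. MAPT, the axonal protein tau, fell from 26.7, 25.8 and 23.5 to 13.2, 13.1 and 17.1 CPM and rose from 18.7, 16.4 and 19.6 to 40.1, 42.1 and 43.3 CPM. NCAM1, a neural adhesion molecule, had effects of -0.49 and 0.67, and its libraries lay within 203 to 208 CPM with DMSO and 142 to 149 CPM with doxycycline in the sh4 line. ELAVL2, a neuronal RNA-binding protein, had -0.70 and 0.23. TUBA1A, TUBB2B and PRPH, which encode tubulins and a neuronal intermediate filament, were the other members, with differences of 0.94, 1.21 and 1.98, but 71.5% of the exons of PRPH are covered by exons of a gene on the other strand. STMN1, a microtubule-destabilising protein, changed in the shAMB line alone. It was at 1225 to 1555 CPM in all 6 sh4 libraries and fell in the shAMB line from 1623, 1757 and 1708 to 325, 313 and 269 CPM, a difference of -2.39 (SE 0.112).

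Synaptic, peptide and channel genes leaned to the shAMB side. Of 37 synaptic vesicle genes, 23 were higher with shAMB and 3 with sh4, at a median difference of 0.45, or 0.19 with the GC and length trends removed. Among 19 granins and neuropeptides, 10 were higher and 4 lower. Here ADCYAP1, CHGB and VGF fell with sh4 and rose with shAMB, and all 3 stayed so with the trends removed, while CARTPT and TAC3 went the other way. ADCYAP1, the neuropeptide PACAP, went from 0.807, 0.570 and 0.783 to 0.401, 0.487 and 0.564 CPM with sh4 and from 1.13, 1.17 and 0.8291 to 5.71, 5.91 and 6.35 CPM with shAMB, and 17.2% of its exons are covered by a gene on the other strand. Of 49 potassium channel genes, 23 were higher with shAMB and 7 with sh4, and 8 fell with sh4 and rose with shAMB against 1 in reverse. The channel list's median difference was 0.64, and 0.06 with the trends removed. KCNA2, a voltage-gated channel of axons, fell from 1.23, 1.57 and 1.71 to 0.779, 0.973 and 0.957 CPM with sh4 and rose from 1.65, 1.61 and 1.47 to 6.49, 6.35 and 7.62 CPM with shAMB. Its difference was 2.84 (SE 0.26), and 2.95 with the trends removed. KCNH6 had a difference of 2.89 and KCNB2 of 1.86. Genes of catecholamine synthesis did not lean that way. Of 15 tested, 5 were higher with shAMB and 6 with sh4, and 2 fell with sh4 and rose with shAMB against 1 in reverse. Their median difference of 0.19 was -0.18 with the trends removed. TH, the rate-limiting enzyme of that list, had effects of -1.40 and 2.39 and a difference of 3.79, or 2.41 with the trends removed. In the sh4 line with doxycycline TH was at 3.52, 3.85 and 10.995 CPM, and the last of these, from replicate 3, lay within the DMSO range of 10.2 to 22.6.

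**Figure D2:**
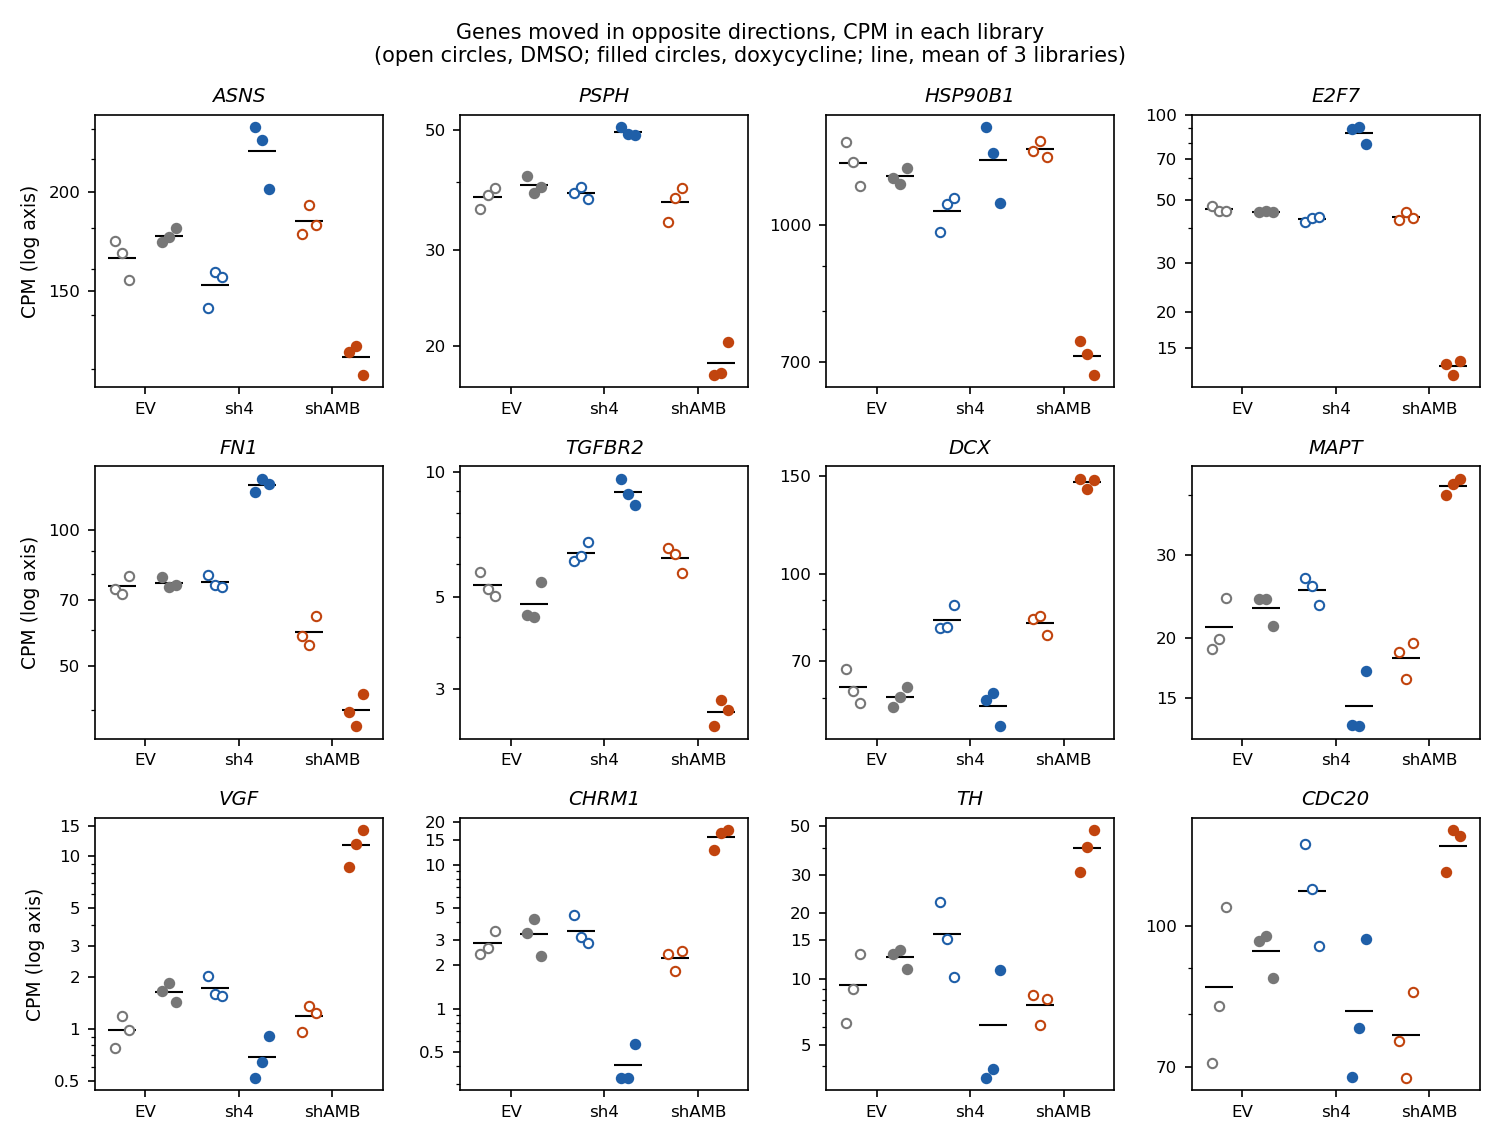
CPM (log axis) in each of the 18 culture libraries for 12 genes, with open points for DMSO, filled points for doxycycline and lines for the mean of 3 libraries in the EV, sh4 and shAMB lines. VGF, CHRM1, DCX and MAPT move down with sh4 and up with shAMB, and ASNS, PSPH, HSP90B1, E2F7, FN1 and TGFBR2 move up with sh4 and down with shAMB.

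Genes that rose with sh4 and fell with shAMB included POSTN, COL6A5 and CARTPT at the largest differences. CARTPT, the precursor of the CART peptides, rose from 12.97, 15.05 and 13.2 to 70.3, 72.7 and 68.6 CPM with sh4 and fell from 23.8, 23.1 and 22.1 to 9.02, 9.04 and 7.62 CPM with shAMB. No library overlapped between the groups of a line, which the rule that named these genes required. The difference was -3.78 (SE 0.113, adjusted p = 1.62e-12). E2F7, an E2F that represses genes of DNA replication, rose from 41.9, 43.2 and 43.8 to 89.6, 90.7 and 79.2 CPM with sh4. In the shAMB line E2F7 fell from 42.6, 45.3 and 43.3 to 13.2, 12.01 and 13.5 CPM. The 2 lines started from the same level, and the difference was -2.78 (SE 0.0798, adjusted p = 1.62e-12). COL6A5, a collagen VI chain, rose from 1.02, 1.02 and 1.03 to 6.02, 5.35 and 4.96 CPM and fell from 1.06, 0.988 and 1.10 to 0.425, 0.332 and 0.438 CPM. DKK1, a secreted inhibitor of Wnt signalling, had effects of 1.15 and -0.95. NRXN3, a presynaptic adhesion molecule, had 1.35 and -0.98, and NEXN, an actin-binding protein, had 1.66 and -1.15. POSTN, a matrix protein, had 0.99 and -2.94, and its sh4 effect did not pass against the EV line (adjusted p = 0.0933). ENTPD5, GRHL3, PPP1R3B and PLSCR5 had differences between -2.88 and -2.28, and 23.2% of the exons of ENTPD5 are covered on the other strand.

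The response driven by ATF4, which supplies amino acids when translation is restrained, leaned up with sh4 and was mixed with shAMB. Of 39 tested genes of this list, 20 rose and 1 fell with sh4, against 22.9% and 18% of all genes tested. With shAMB 13 rose and 13 fell, near the 37.6% and 28.4% of all genes tested. The difference was lower in 15 and higher in 6, against 27.8% and 33.1%. In this list 10 genes rose with sh4 and fell with shAMB, against 6.94% of all genes tested, and 1 went in reverse, against 5.41%. The median difference of -0.04 became -0.54 with the GC and length trends removed, and 9 of the 10 stayed opposite. ATF4 itself rose from 526, 548 and 537 to 631, 643 and 633 CPM with sh4 and fell from 585, 544 and 578 to 434, 445 and 398 CPM with shAMB. Its libraries were separate in each line and the difference was -0.66 (SE 0.0648, adjusted p = 5.15e-07). The sh4 effect did not pass against that in the EV line (adjusted p = 0.123). PSPH, the last enzyme of serine synthesis, rose from 38.2, 39.3 and 37.2 to 50.5, 49.2 and 48.8 CPM and fell from 33.9, 37.5 and 39.0 to 17.7, 17.8 and 20.3 CPM. PSAT1, the enzyme before it, had effects of 0.37 and -0.60. SLC7A11, the cystine transporter, had 0.39 and -0.51. ALDH18A1, ALDH1L2, CEBPG, MTHFD2 and XPOT completed the set. PHGDH, the first enzyme of serine synthesis, was not opposite: it fell with shAMB from 127, 108 and 136 to 24.9, 27.6 and 28.8 CPM, with an sh4 effect of -0.07 (adjusted p = 0.763). DDIT3, the pro-apoptotic factor CHOP, was the member in reverse, with effects of -0.37 and 0.19, and 31.6% of its exons are covered on the other strand.

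ASNS, which makes asparagine, was at 143, 159 and 156 CPM in the sh4 line with DMSO and at 241, 232 and 202 with doxycycline. In the shAMB line ASNS went from 177, 193 and 182 to 126, 128 and 118 CPM. The groups were separate in both lines, and the difference was -1.13 (SE 0.0919, adjusted p = 6.91e-08). Exons of another gene on the same strand cover 49.3% of its exons, so the level is uncertain. Its promoter is shown because it was the 1 match among the 7 opposite members with a window to the C/EBP-ATF response element (TGATGNAAN, in capitals), the composite site through which ATF4 is known to act. The match begins 68 bases before the start, in chr7:97872443-97872501 on the minus strand of GRCh38.p14, from RefSeq.
ASNS: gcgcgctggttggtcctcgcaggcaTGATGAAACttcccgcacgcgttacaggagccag
On either strand, the element was found in 6 of the 31 ATF4 genes with a window, in 1.66% of tested genes, in 2.98% of genes that rose with sh4 and fell with shAMB, and in 0.952% of those that fell with sh4 and rose with shAMB.

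Genes of the unfolded protein response leaned up with sh4 and down with shAMB. The unfolded protein response raises chaperones and folding enzymes when the secretory compartment is loaded. Of its 31 tested genes, 15 rose and 1 fell with sh4, and 6 rose and 14 fell with shAMB. The difference was lower in 18 and higher in 5, with a median of -0.29 and of -0.38 with the GC and length trends removed. ATF6, CREB3L2, DNAJC3, ERO1A, HSP90B1, MANF and PDIA6 rose with sh4 and fell with shAMB, and none went the other way. DNAJC3, a co-chaperone that inhibits the kinase PERK, rose from 34.0, 34.6 and 38.7 to 48.4, 48.4 and 43.7 CPM and fell from 38.5, 42.0 and 39.7 to 20.3, 20.2 and 19.1 CPM, a difference of -1.40 (SE 0.0937, adjusted p = 8.08e-09). MANF, a secreted survival factor, had effects of 0.46 and -0.44, and PDIA6, a disulphide isomerase, 0.19 and -0.34. HSP90B1, the chaperone GRP94, was at 983, 1057 and 1075 CPM with DMSO and at 1293, 1208 and 1061 with doxycycline in the sh4 line, where the ranges met. In the shAMB line HSP90B1 fell from 1216, 1247 and 1197 to 740, 714 and 676 CPM. Its difference was -0.97 (SE 0.0904, adjusted p = 2.88e-07). The sh4 effect of 0.19 was 0.08 once the trends were removed and still passed, as did those of all these members but ATF6. A gene on the other strand covers 6.95% of its exons. Its promoter is shown because among the 7 opposite members it alone matched the ER stress response element, which joins a CCAAT box to CCACG across a spacer and lies here on the other strand, so that it reads in reverse complement in the capitals. The match begins 89 bases before the start, in chr12:103930296-103930364 on the plus strand of GRCh38.p14, from RefSeq.
HSP90B1: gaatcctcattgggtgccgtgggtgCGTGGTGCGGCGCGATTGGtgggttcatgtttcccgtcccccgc
The element was found in 7 of 28 unfolded protein response genes with a window and in 0.120% of tested genes.

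Replication genes were lower on the shAMB side. Of 60 genes driven by E2F factors, 34 were lower and 8 higher in the difference. With sh4, 9 rose and 14 fell, and with shAMB 5 rose and 41 fell. The median difference was -0.28, and -0.21 with the GC and length trends removed. CCNE1, the cyclin that starts S phase, rose from 23.4, 24.2 and 25.05 to 57.2, 54.9 and 54.9 CPM with sh4 and slipped from 26.1, 25.4 and 25.1 to 22.4, 22.3 and 21.05 CPM with shAMB. Its groups were separate in both lines and the difference was -1.42 (SE 0.0667, adjusted p = 1.62e-10). GINS4, POLD3, RAD51AP1, RFC4, RFC5 and WDHD1 were the other members that rose with sh4 and fell with shAMB. DNMT1, the maintenance DNA methyltransferase, was the 1 in reverse, with effects of -0.47 and 0.18, and it fell in both lines with the trends removed. GINS4, a subunit of the replicative helicase, had effects of 0.50 and -0.46, and RFC4, a clamp loader subunit, had 0.25 and -0.26. With the trends removed RFC4 passed with sh4 alone, and 23.4% of the exons of GINS4 are covered on the other strand. The 2 E2F motifs searched were TTTGGCGC and TTTCCCGC. Of the 7 members that rose with sh4 and fell with shAMB, 5 had a window. Neither motif lay in the 250 bases before the start in those 5. In the whole list they were in 8 and 11 of 50 windows, which also take in the 50 bases after the start. The counts are therefore not over the same stretch and are not compared.

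Genes of G2 and mitosis were higher in the difference about as often as all genes, but fell more often in both lines. Of 58, 20 were higher and 12 lower in the difference, against 33.1% and 27.8% of all genes tested. Of the same 58, 8 fell with sh4 and rose with shAMB (BIRC5, BUB1, BUB3, CDC20, INCENP, KIF22, NEK2 and TACC3) against PLK4 alone in reverse. The shares of all genes tested were 5.41% and 6.94%. With the GC and length trends removed, 4 of the 8 stayed opposite. CDC20, an activator of the anaphase-promoting complex, had effects of -0.44 and 0.69. Its sh4 libraries overlapped between DMSO (95.05 to 123 CPM) and doxycycline (68.1 to 96.7 CPM), and the highest of the latter was replicate 3. PLK4, the kinase that duplicates centrioles, had effects of 0.20 and -0.75. Of the whole list, 33 genes fell and 2 rose with sh4, against 18% and 22.9% of all genes tested. With shAMB 27 fell and 11 rose, against 28.4% and 37.6%.

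Mesenchymal markers and p53 targets leaned to the sh4 side. Neuroblastoma cells can take a mesenchymal state as well as the sympathetic one. Of 24 mesenchymal markers, 13 rose and 5 fell with sh4, while 10 rose and 11 fell with shAMB, at medians of 0.46 and -0.26. The difference was lower in 11 and higher in 3. FN1, NOTCH2, PRRX1, SPARC, SPRY1, TGFBR2 and YAP1 rose with sh4 and fell with shAMB, all 7 also with the GC and length trends removed, while LGALS1 and TIMP1 went the other way. FN1, the matrix protein fibronectin, rose from 79.5, 75.5 and 74.9 to 121, 130 and 126 CPM and fell from 58.4, 55.8 and 64.5 to 39.7, 36.8 and 43.5 CPM, a difference of -1.29 (SE 0.0894, adjusted p = 1.17e-08). TGFBR2, the type II receptor for TGF-beta, had effects of 0.49 and -1.23. YAP1, the Hippo pathway co-activator, had 0.99 and -0.39. Of 30 p53 targets, 15 were lower and 6 higher in the difference, against 27.8% and 33.1% of all genes tested. With sh4, 13 rose and none fell, against 22.9% and 18%. With shAMB, 10 rose and 12 fell, against 37.6% and 28.4%. BTG2, an antiproliferative gene, rose from 38.9, 41.3 and 41.2 to 97.2, 101 and 97.4 CPM with sh4 and fell from 39.9, 39.4 and 40.3 to 34.1, 36.1 and 30.6 CPM with shAMB. The difference was -1.53 (SE 0.0732, adjusted p = 2.06e-10), but the shAMB effect did not pass against the EV line (adjusted p = 0.136). EDA2R, MDM2, RRM2B, TNFRSF10B and TRIAP1 were the other opposite p53 targets.

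**Figure D3:**
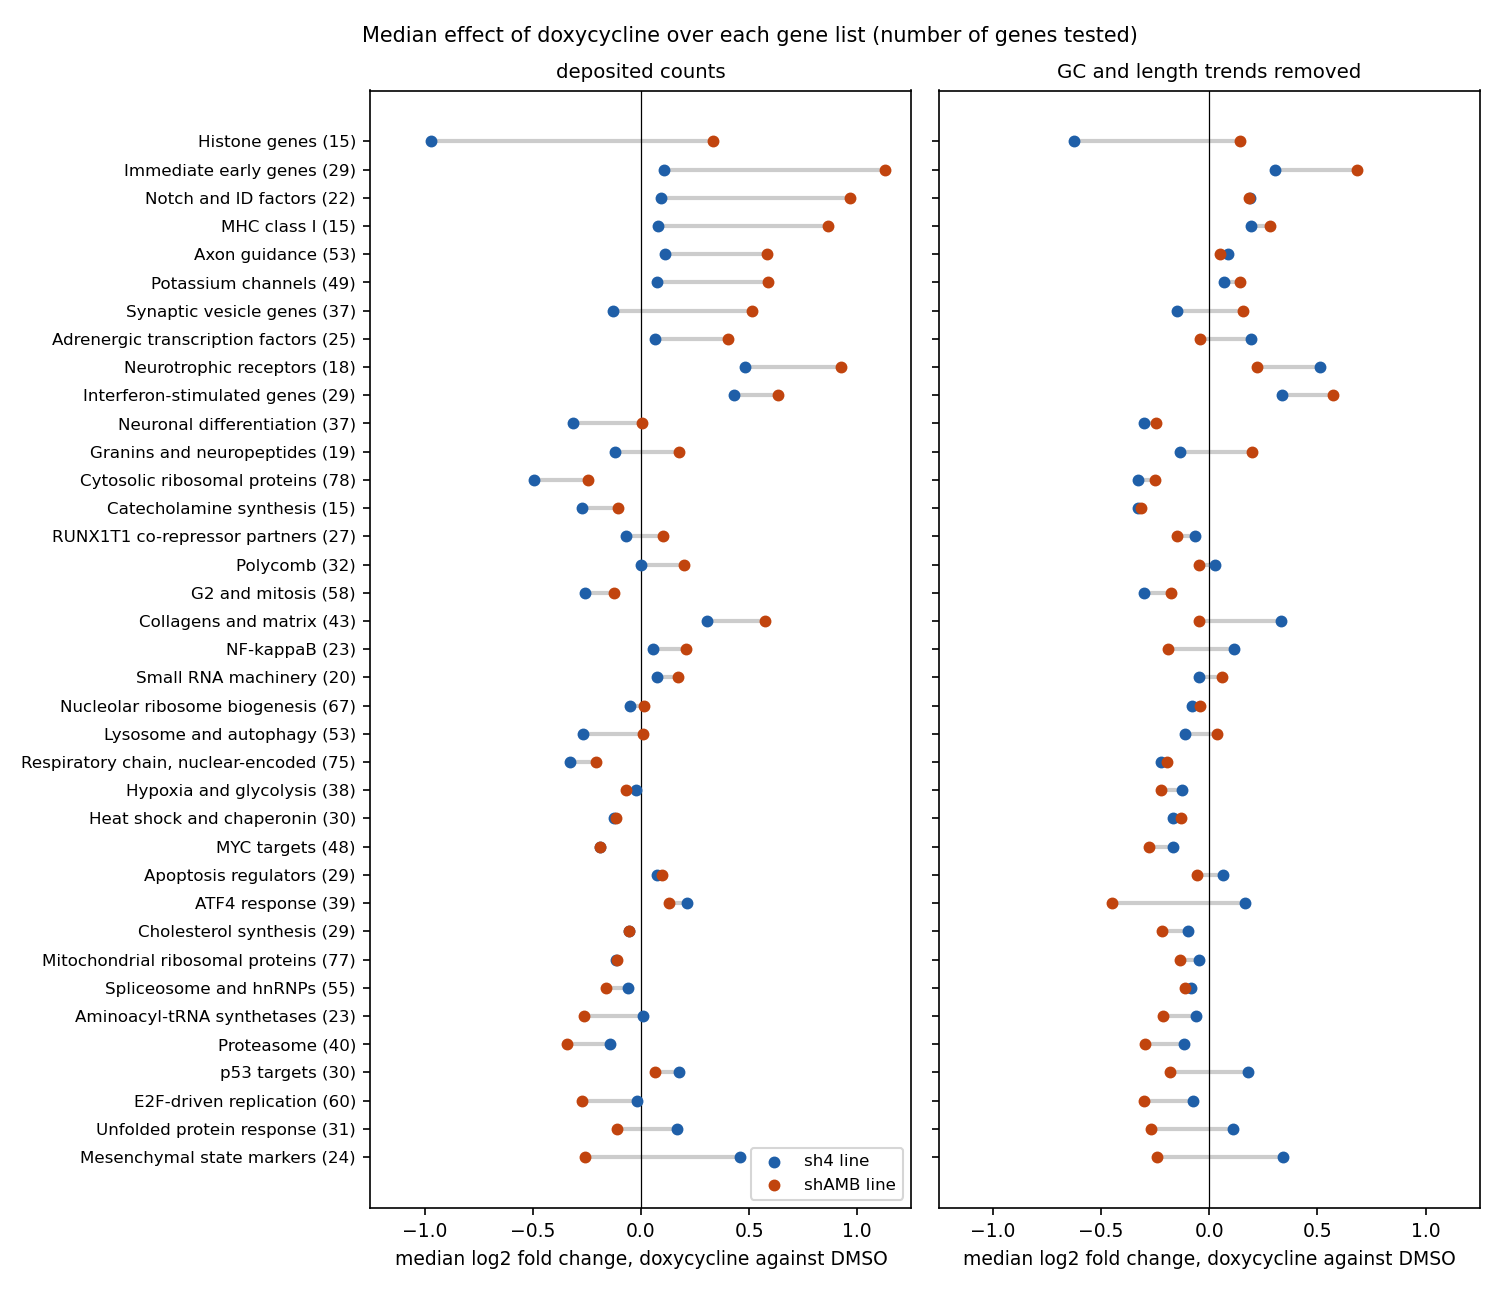
Median log2 fold change of each gene list with at least 15 tested genes in the sh4 line and in the shAMB line, from the deposited counts (left) and with the GC and length trends removed (right). Immediate early genes sit highest with shAMB, at a median of 1.13 against 0.11 with sh4, and mesenchymal markers at 0.46 with sh4 and -0.26 with shAMB.

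Further lists had more genes higher with shAMB than with sh4. Of 29 immediate early genes, which respond first to growth factors and depolarisation, 19 were higher with shAMB and 4 with sh4, at a median difference of 0.95, or 0.34 with the GC and length trends removed. EGR1, the zinc finger factor of this class, was at 2.15, 2.24 and 2.28 CPM with DMSO and 2.86, 3.09 and 3.22 with doxycycline in the sh4 line. In the shAMB line EGR1 went from 2.07, 2.03 and 2.14 to 49.7, 56.6 and 61.4 CPM, a difference of 4.29 (SE 0.133, adjusted p = 1.95e-12). NR4A3, an orphan nuclear receptor of the same list, moved in opposite directions, at 0.93 and -0.93. Of 22 Notch and ID genes, 13 were higher and 1 was lower, at 0.89, or 0.14 with the trends removed. Axon guidance genes had 26 of 53 higher and 14 lower, and their median difference of 0.70 was -0.07 with the trends removed. Cytosolic ribosomal protein genes fell with sh4 in 72 of 78 and with shAMB in 42 of 78, while 9 rose with shAMB. In the difference 36 were higher and 12 lower. Their median difference of 0.24 was 0.05 with the trends removed, at medians of -0.33 with sh4 and -0.25 with shAMB. Of 15 histone genes tested, 9 were higher with shAMB and none with sh4, at a median of 1.37, or 0.96 with the trends removed. Most histone transcripts lack a poly(A) tail.

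The genes farthest apart included several that responded in the shAMB line alone. RASGRF1, an exchange factor for RAS, was at 0.0192 to 0.138 CPM in all 6 sh4 libraries and rose in the shAMB line from 0.0986, 0.0260 and 0.0535 to 6.87, 5.98 and 7.75 CPM. SHISA2, a regulator of Wnt and FGF receptors, rose from 0.296, 0.702 and 0.562 to 15.7, 15.1 and 15.5 CPM with shAMB and had an sh4 effect of 0.24 (adjusted p = 0.458). CNTNAP4, a neurexin-like adhesion molecule, fell from 4.41, 4.24 and 3.96 to 0.291, 0.455 and 0.531 CPM with shAMB, with an sh4 effect of 0.17 (adjusted p = 0.315), and 51.3% of its exons are covered on the same strand. C7, a complement component, fell in both lines, by 1.77 with sh4 and by 4.89 with shAMB on the log2 scale. ADORA2A, PLSCR3 and PPAN-P2RY11 had fitted differences of 10.56, 9.95 and 4.62, but exons of other genes on the same strand cover 56.8%, 76.4% and 94.8% of theirs. ADORA2A and PLSCR3 were at 0 in all 3 shAMB libraries with DMSO, so those fitted values are no measure of size, and neither passed when the doxycycline libraries were compared directly (adjusted p = 0.626 and 0.342). Of the other genes named by this rule, FAXDC2, ADAMTS19 and HAS2 rose with sh4 and fell with shAMB, and PGBD3 had a difference of -3.31 with an SE of 1.29 that did not pass in DESeq2 (adjusted p = 0.0951) or with any 1 of 7 single libraries left out.

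The hairpins also shared changes that were larger with sh4. C1orf43, a gene used as a stable reference in some expression panels, fell from 304, 314 and 303 to 88.5, 88.2 and 85.5 CPM with sh4 and from 284, 307 and 312 to 238, 245 and 222 CPM with shAMB. Its groups were separate in both lines and the difference was 1.46 (SE 0.0602, adjusted p = 3.47e-11). HIGD1A, a mitochondrial protein induced by hypoxia, had effects of -2.23 and -0.34, and MTPN, the actin-capping regulator myotrophin, -1.59 and -0.48. AKR1C1 and TBC1D30 also fell more with sh4, by 2.15 and by 1.35 on the log2 scale. BCL2L11, the pro-apoptotic protein BIM, rose from 11.97, 11.5 and 11.9 to 30.9, 31.2 and 28.0 CPM with sh4 and from 12.9, 12.8 and 12.3 to 14.04, 14.99 and 13.4 CPM with shAMB. NEDD9, a scaffold of focal adhesions, rose by 1.57 and 0.20, and FLI1, an ETS factor, by 3.04 and 1.66, with HESX1 and EPB41L4B in the same group. With the GC and length trends removed, the shAMB rise of BCL2L11 and NEDD9 no longer passed.

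MYCN rose with both hairpins, from 2323, 2219 and 2035 to 3246, 3202 and 4090 CPM with sh4 and from 2085, 2130 and 2170 to 5944, 6442 and 6561 CPM with shAMB. The groups were separate in each line, and the difference was 0.89 (SE 0.111, adjusted p = 6.71e-06). Its partner MAX fell by 0.22 with sh4 and by 0.59 with shAMB. Of 27 co-repressor partners of RUNX1T1, 11 were higher and 6 lower in the difference, near the 33.1% and 27.8% of all genes tested, and the median of 0.17 was -0.05 with the GC and length trends removed. The 3 opposite members, against 12.3% of all genes, rose with sh4: HDAC1, HDAC3 and KDM1A, which fell with shAMB. HDAC1, a class I histone deacetylase, rose from 135, 140 and 137 to 166, 169 and 167 CPM with sh4 and fell from 135, 133 and 135 to 88.2, 86.2 and 81.0 CPM with shAMB, a difference of -0.94 (SE 0.0506, adjusted p = 7.89e-10). KDM1A, the histone demethylase LSD1, had effects of 0.13 and -0.55, and with the GC and length trends removed it passed with shAMB alone. RCOR2, which binds KDM1A, had a difference of 0.95 that turned to -0.38 with the trends removed. HAND2, a factor of the sympathetic core circuit, rose by 0.23 and fell by 0.55 on the log2 scale, with a gene on the other strand over 24.1% of its exons.

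Beside the effects that chose them, the opposite sets differed in length and level. Genes that rose with sh4 and fell with shAMB had a median length of 3641 bases and a median level of 47.7 CPM over the 12 libraries. Those that fell with sh4 and rose with shAMB had 2964 bases and 20.9 CPM, against 2948 bases and 20.5 CPM for all genes tested. The GC content of promoters was alike, at medians of 65.7%, 66.0% and 65.0%. Exons of other genes covered more than 5% of the exons in 31.1% and 26.5% of the sets and in 32.4% of all genes tested, so these values can hold reads of a neighbour. Beside the genes whose share is given above, this touched the values of CHRM1, HR, NCAM1, TUBA1A, TAC3, SLC7A11, MTHFD2, PDIA6, ERO1A, KIF22, RFC5, MDM2, TNFRSF10B, YAP1, DKK1, NEXN, PLSCR5, RASGRF1, HAS2, ADAMTS19, HIGD1A, TBC1D30, BCL2L11, MAX and HDAC3. By chromosome, genes that fell with sh4 and rose with shAMB made up 8.48% of tested genes on chromosome 22 and 8.31% on chromosome 20. Genes that went the other way were scarcest on chromosomes 22 and 19, at 2.57% and 3.41%, and most frequent on chromosomes 18 and 4, at 10.50% and 10.3%. The median GC content of tested genes was 57.1% on chromosome 22 and 43.8% on chromosome 4. The E-box CACGTG, bound by MYCN with MAX, was in 10.2% and 10.7% of promoters of the 2 sets and in 10.1% of tested genes. The RUNX motif TGTGGT was in 8.41%, 9.07% and 9.42%.

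Kelly tumours, which by the study's text carried the Ambion-based hairpin, were compared as separate libraries and not as a neutral reading between the hairpins. Between the tumours labelled RUNX1T1 KO and WT, 20.5% of the 14670 genes tested in both sets were higher and 21.3% were lower at an adjusted p under 0.05. Of the 806 genes that fell with sh4 and rose with shAMB, 300 (37.2%) were higher in the KO tumours and 8 (0.993%) were lower, at a median of 0.26. Of the 1034 that rose with sh4 and fell with shAMB, 1028 were tested in tumours. Here 20 (1.95%) were higher and 551 (53.6%) lower, at a median of -0.34. Both sets thus moved more often in the direction they had with shAMB. Only its name ties shAMB to the hairpin that the study's text gives for the tumours. Among the 500 and 787 genes that stayed opposite with the GC and length trends removed, 254 were higher and 3 lower, and 16 were higher and 445 lower. The xenograft effect itself had a Spearman correlation of 0.063 with GC content across genes. Of the list members above, E2F7 was at 26.8, 31.3, 25.5 and 25.04 CPM in WT tumours and at 6.99, 7.86, 7.33 and 8.19 CPM in KO tumours, DCX at 46.8, 61.5, 36.6 and 53.5 against 131, 240, 228 and 250 CPM. All 7 replication genes that rose with sh4 and fell with shAMB were lower in the KO tumours, as was DNMT1, in reverse in culture. So were 5 of the 7 unfolded protein response genes and 6 of the 10 ATF4 genes, and 5 of the 7 neuronal genes were higher. The 3 opposite peptide genes up with shAMB and 4 of 8 potassium channel genes were higher, but 1 of 8 G2 and mitosis genes. Of 7 mesenchymal markers up with sh4, 3 were lower, and of 6 p53 targets 1 was lower and 1 higher. None of the 5 ribosomal protein and 3 histone genes opposite in culture passed. CARTPT (log2 fold change -0.03, adjusted p = 0.929) and NRXN3 (0.01, adjusted p = 0.975) were opposite in culture and did not pass in tumours, and BTG2 was higher, by 0.55. All tumours grew in mice, and with no tumour of the empty vector the parts of the hairpin and of doxycycline cannot be told apart.

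**Figure D4:**
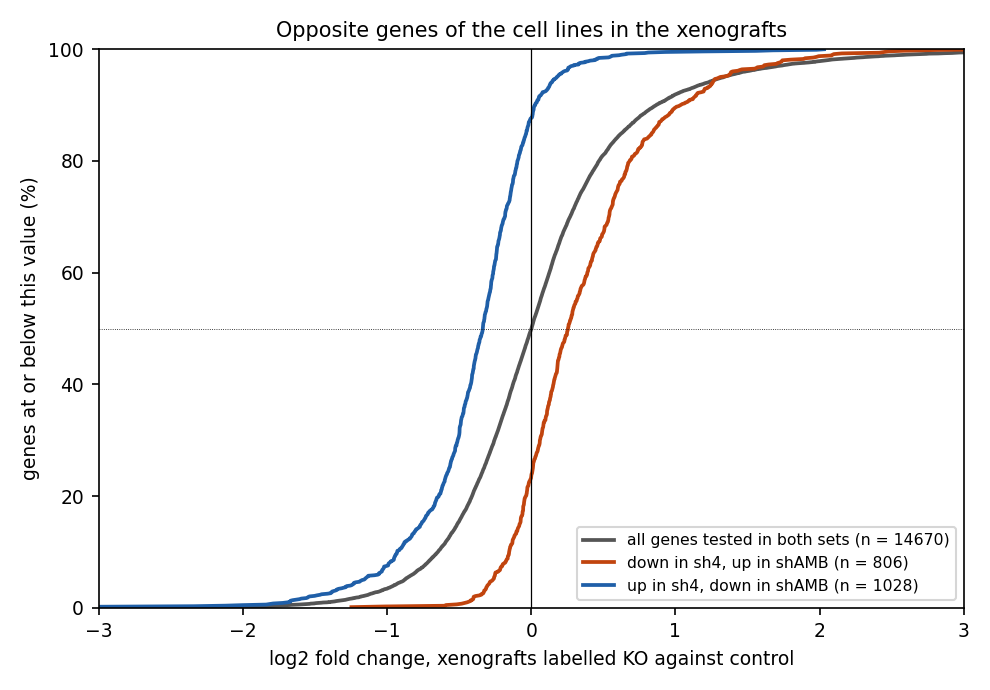
Cumulative share of genes by log2 fold change between tumours labelled RUNX1T1 KO and WT, for the 806 genes that fell with sh4 and rose with shAMB, the 1028 that rose with sh4 and fell with shAMB, and all 14670 genes tested in both sets. The medians are 0.26, -0.34 and 0.00.

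How far the lines differed before induction depended on single libraries. Between uninduced shAMB and sh4 libraries, 5445 genes (36.5%) passed, but the number was 77 without replicate 1 of the sh4 line and 95 without replicate 2 of the shAMB line, and 6 with replicates blocked within each line. The difference between effects uses the same DMSO libraries. With the doxycycline libraries compared directly, and the DMSO libraries left out, 9141 genes (61.3%) passed, 31.6% of genes tested higher and 29.7% lower in the shAMB line, and 776 of the 806 and 1027 of the 1034 opposite genes passed with the same sign. These are the same doxycycline libraries that chose the genes, so that share is no separate support. RUNX1T1 itself was higher in the uninduced shAMB line, by 0.25 (adjusted p = 0.0186).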

How the data were processed

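RNA was sequenced from 18 Kelly cultures and 8 Kelly xenografts. Per the submitters' processing notes, reads were handled with STAR, SAMtools and RSEM on hg38; versions, annotation, strand setting and library selection are not given in the sources used here. The authors deposited RSEM expected counts for 26485 genes and the same libraries as TPM. Of the count values, 91.8% were whole in cultures and 91.0% in xenografts, and all were rounded. The TPM deposited by the authors served for RUNX1T1 alone, as log2(TPM + 1). Totals were 35115900 to 54736700 counts per culture library and 47346100 to 62378100 per xenograft.

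Genes were kept by filterByExpr and scaled by TMM in edgeR 4.0.16 (R 4.3.3). All 18 culture libraries entered 1 quasi-likelihood fit, which also gave the estimate of spread, and the contrast was (shAMB doxycycline - shAMB DMSO) - (sh4 doxycycline - sh4 DMSO). Xenografts had a fit of their own, with 15960 genes. P-values were adjusted by Benjamini and Hochberg over all genes tested, and 0.05 was the threshold. CPM are counts-per-million of TMM-scaled totals. GC and length trends were removed per library with splines of 5 degrees of freedom. On simulated data with 14905 genes, the test of the difference recovered 88% of 100 changes of 1 on the log2 scale. It recovered 38% of 100 changes of 0.5, with 5 false calls. The number of false calls in the sequenced libraries, whose deviations followed GC content, was not tested.

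Alternatives were RLE scaling, no filter, DESeq2 1.42.0, limma-voom 3.58.1, the 12 hairpin libraries alone, replicate blocks, each library left out, and the GC and length step. Symbols were matched to RefSeq for 25320 genes. Named genes were protein-coding with a mean of at least 1 CPM. They were the 12 in each direction with the largest smaller effect among opposite genes whose groups did not overlap, the 10 in each direction with the largest difference, the 5 up and 5 down that moved alike but more with sh4, the extremes of each list, and genes of the study. A few genes that these rules name are not reported here. Other list members were named because they were opposite, after their values were seen. Members and lists were chosen with earlier results of these data known. No pair of replicates agreed within sampling noise.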

Additional observations from a re-analysis of the deposited data

Results flagged for a closer look

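The doxycycline effect differed between the hairpin lines, by the test of the difference itself, for 9078 genes, and 1840 of them changed in opposite directions. The values below are differences of log2 fold changes, shAMB minus sh4, for the named genes reported here that passed this test. Genes read out by more than 1 of the naming rules are given once.

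Among genes that fell with sh4 and rose with shAMB, the differences were CHRM1 5.90, HR 5.21, DHRS2 4.90, VGF 4.61, PGAM2 3.59, OPRL1 3.12, SYT5 3.05, RENBP 3.03, CAMKK1 2.99, CCDC78 2.94, FAM110D 2.69 and LGALS1 2.55. Among genes that rose with sh4 and fell with shAMB they were POSTN -3.94, COL6A5 -3.81, CARTPT -3.78, GRHL3 -2.88, NEXN -2.81, E2F7 -2.78, PLSCR5 -2.55, ENTPD5 -2.53, NRXN3 -2.33, PPP1R3B -2.28, DKK1 -2.10 and NOTCH2 -1.91. Farthest apart beside these were ADORA2A 10.56, PLSCR3 9.95, RASGRF1 6.84, SHISA2 4.65 and PPAN-P2RY11 4.62 on the shAMB side. On the sh4 side they were CNTNAP4 -3.46, PGBD3 -3.31, C7 -3.11, FAXDC2 -2.92, ADAMTS19 -2.87 and HAS2 -2.84. Of the changes shared by both lines and larger with sh4, the rises gave FLI1 -1.38, NEDD9 -1.38, HESX1 -1.31, EPB41L4B -1.27 and BCL2L11 -1.19. The falls gave HIGD1A 1.89, AKR1C1 1.501, C1orf43 1.46, TBC1D30 1.18 and MTPN 1.12.

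Of transcription and chromatin genes, MXD1 had 1.35, MYCL -1.17, RUVBL2 2.20, SHMT1 -1.67, RCOR2 0.95, HDAC1 -0.94, JARID2 1.42, PCGF6 -0.64, PHOX2A 1.54 and HAND1 -0.94. Of neuronal genes, TH had 3.79, MAOA -1.45, LTK 2.96, GFRA1 -0.91, L1CAM 2.42, STMN1 -2.39, SYT2 -1.18, NTN1 2.99, SEMA3E -1.36, ID3 2.56, KCNK9 3.54 and KCNS3 -0.999. Cell cycle and death genes gave MCM5 1.53, CCNE1 -1.42, UBE2S 1.48, PLK4 -0.95, PLK3 1.47, BTG2 -1.53, CASP9 1.40 and HRK -1.35. Amino acid, secretory and lipid genes gave DDIT4 0.98, PHGDH -2.12, SHMT1 -1.67, FARSA 1.33, IARS -0.75, SEC61B 1.26, DNAJC3 -1.40 and TM7SF2 2.41. Mitochondrial and ribosomal genes gave NDUFS7 2.82, UQCRB -1.20, RPS28 1.99, RPL30 -1.15, MRPL4 1.96, MRPL42 -0.88, BOP1 2.17 and CIRH1A -0.80.

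Signalling, immune and hypoxia genes gave EGR1 4.29, NR4A3 -1.85, TRAF2 1.68, REL -1.04, IRF1 1.66, CMPK2 -0.66, NLRC5 1.94, CANX -0.59, BHLHE40 1.94 and MXI1 -1.09. Matrix, small RNA and protein-handling genes gave LAMA5 2.78, FBN1 -1.97, AGO2 1.43, LIN28B -0.87, HSPB1 1.97, BAG2 -1.42, PSME1 1.20, PSMB5 -1.03, SF3A2 1.62, PRPF38A -1.39, TFEB 2.23, ATG13 -1.95 and H1FX 2.33. Markers of other cell types gave MBP 1.01, PMP22 -0.97, THY1 1.07, KDR -1.02 and CD68 1.66. Genes named in the study gave MYCN 0.89, MAX -0.37, KDM1A -0.68, HDAC3 -0.50, HAND2 -0.77, GSPT1 -1.20, CLNS1A -0.98 and NAP1L1 -0.66.

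In the xenografts, DKK1 in replicate 1 of the tumours labelled RUNX1T1 KO lay apart from the other 3, at 7.72 CPM. Chance gives about 1 such value in 20 groups, and 44 groups of 4 were looked at.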

How the results depend on the processing

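The replicate numbers did not pair the cultures: 18 same-numbered pairs of hairpin libraries had correlations from -0.603 to 0.466, and 6 were over 0.1. With the replicate number as a block within each line, opposite genes numbered 1083, of which 421 fell and 662 rose with sh4, the EV line had 2 genes and the uninduced lines differed in 6. A block shared by the lines moved no count by over 1.5 times. With GC and length trends removed, 1258 genes fell with sh4 and rose with shAMB, 54 passed in the EV line and 3392 differed between uninduced lines. With the shared block as well these were 1258, 43 and 3245. In the 12 hairpin libraries alone, 2757 genes differed before induction. With each library left out in turn, the difference gave 8073 to 10064 genes, 4157 to 5282 of them higher and 3851 to 4782 lower with shAMB. Opposite genes then ran from 1280 to 3419, those down with sh4 from 529 to 1884, those up with sh4 from 751 to 1535, and uninduced lines from 77 to 7090. A difference of at least 1 left 3226 genes, opposite effects of at least 0.5 left 472, and a test of each effect against the EV line left 886. RLE scaling changed the split of the difference from 4933 higher and 4145 lower to 4464 and 4550, and DESeq2 gave 4364 and 4481. Xenografts had 6555 genes, 4961 to 7078 with a tumour left out, 4929 with a replicate block and 8671 with trends removed. RCOR2 turned from 0.95 to -0.38, with and without the block. RUNX1T1, at 0.17 from counts and from TPM, passed with trends removed (0.15, adjusted p = 0.0415, or 0.0470 with the shared block) and without replicate 2 of the sh4 line with doxycycline (0.22, adjusted p = 0.0288). Of the recomputed differences of named genes, 2854 kept their call and direction, 41 lost the call, 7 gained one and 2, both RCOR2, reversed. The direct comparison of doxycycline libraries and the TPM value were chosen after seeing the data. The causes of these changes were not tested.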

Other observations

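Lists not described above moved as follows, and rises and falls are to be read against all genes tested, of which 22.9% rose and 18% fell with sh4 and 37.6% rose and 28.4% fell with shAMB. Of 40 proteasome genes, 12 fell and none rose with sh4, and 29 fell and 3 rose with shAMB. PSMB5, a catalytic subunit, had a difference of -1.03. Of 75 nuclear genes of the respiratory chain, 49 fell and none rose with sh4, and 43 fell and 12 rose with shAMB. Interferon-stimulated genes rose in both lines, 15 of 29 with sh4 and 19 of 29 with shAMB, with medians of 0.43 and 0.64. Of 18 neurotrophic receptors, 10 rose with sh4 and 12 with shAMB, and 1 fell in each. Their shAMB median of 0.92 was 0.22 with the GC and length trends removed. Of 43 collagen and matrix genes, 19 rose and 1 fell with sh4, and 24 rose and 10 fell with shAMB. The shAMB median of 0.57 was -0.05 with the trends removed, and the difference of 0.10 was -0.32. Here 7 rose with sh4 and fell with shAMB, against 1 in reverse. Of 25 adrenergic transcription factors, 12 were higher and 8 lower in the difference (33.1% and 27.8% of all genes), and the median of 0.39 was -0.30 with the GC and length trends removed. PHOX2A, a factor of that circuit, had a difference of 1.54 that was 0.06 (adjusted p = 0.601 in edgeR's quasi-likelihood test) with the trends removed.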
